A study of Mus musculus with 28 samples.

Results

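Nfkb1, Nfkb2 and Relb encode 3 subunits of the transcription factor NF-kappaB, and their transcripts were followed in mouse monocytes before and after entry into the small intestine. They were taken by name from a NanoString panel of 72 targets, which counts barcoded probes bound to each transcript, and they are all the NF-kappaB subunits the panel held. The other subunits and the inhibitors looked for (Rel, Rela, Nfkbia, Nfkbib, Nfkbie, Tnfaip3 and Bcl3) were not on it. Monocytes came from C57BL/6 donors that were wild type (WT) or lacked the receptor gene Trem1 (Trem1-/-), and were transferred into C57BL/6 CCR2-/- recipients, in which monocytes leave the bone marrow poorly. All intestinal groups share that recipient. The recipient's small intestine had been manipulated surgically 1 day earlier (inflamed) or not touched (control), and 100 donor-derived cells were sorted 1 day after the transfer. The groups were WT control (5 recipients), WT inflamed (5), Trem1-/- control (5), Trem1-/- inflamed (7), and monocytes taken directly from the bone marrow of unmanipulated WT (3) and Trem1-/- (3) mice, 28 samples in all. Marrow monocytes were neither transferred nor recovered from tissue, so marrow against intestine also compares untransferred with transferred cells. The age of the mice, and whether donors were pooled, were not given in the sources used here.

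NF-kappaB factors are dimers that switch on inflammatory genes. Nfkb1 encodes p105, the precursor of p50, which in the canonical pathway pairs with RelA or c-Rel downstream of Toll-like receptors, interleukin 1 and tumour necrosis factor. Nfkb2 encodes p100, the precursor of p52, and RelB is the usual partner of p52 in the non-canonical pathway downstream of receptors such as CD40. These pathways act largely by freeing protein that is already made, and NF-kappaB also induces transcription of Nfkb1, Nfkb2 and Relb. In monocytes TREM1 amplifies signals of Toll-like receptors.

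The probe for Nfkb1 read positions 2126 to 2225 of NM_008689.2, that for Nfkb2 positions 1151 to 1250 of NM_019408.2, and that for Relb positions 2014 to 2113 of NM_009046.2. The files name no genome build. Nfkb2 has 3 promoters in RefSeq (build GRCm38.p6, chromosome 19, plus strand), and the first 2 are shown because the kappaB motif is the sequence that NF-kappaB dimers recognise. Capitals mark matches to the textbook kappaB consensus, searched on both strands.
Nfkb2 promoter 1, chr19:46304658-46304775: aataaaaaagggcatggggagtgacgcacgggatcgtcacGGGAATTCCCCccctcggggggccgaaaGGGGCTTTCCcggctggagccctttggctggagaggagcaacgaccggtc
Nfkb2 promoter 2, chr19:46305445-46305744: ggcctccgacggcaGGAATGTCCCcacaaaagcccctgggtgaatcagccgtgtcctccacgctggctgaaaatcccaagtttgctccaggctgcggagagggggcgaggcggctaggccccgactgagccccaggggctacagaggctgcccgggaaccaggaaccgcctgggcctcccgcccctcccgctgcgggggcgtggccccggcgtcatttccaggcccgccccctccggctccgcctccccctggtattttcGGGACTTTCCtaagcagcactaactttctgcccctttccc
In promoter 1 the matches begin 39, 38 and 11 bases before the start, the first 2 of them overlapping. Promoter 2 holds a match that begins 236 bases before its start and another just after the start, and the window of promoter 3 covers that latter match. Of 32851 RefSeq promoters of the same length, 2779 (8.46%) held the consensus. These matches describe the sequence only, and no binding was measured. No promoter sequence is shown for Nfkb1 or Relb.

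All 28 samples gave values for the 3 genes. Total counts per sample ran from 720570 to 1625959, and background, the mean of 5 negative control probes plus 2 SD, from 16.7 to 59.0 counts. Nfkb1 was at least 181 times and Nfkb2 at least 105 times above background in every sample. Relb was 4.41 to 25.2 times above it on 112 to 972 counts, the lowest of the 3 genes. Of 12 listed monocyte and macrophage markers, 10 had values and lay above background in every group. Of 6 dendritic cell markers, 4 had values, and Flt3 and Zbtb46 were blank. No listed marker of neutrophils, of T or B cells, or of eosinophils or mast cells had a value. The Trem1 entries of every Trem1-/- and marrow sample were blank, so donor genotype could not be checked by Trem1 itself. The positive control probes did not overlap between genotypes within the intestine. Their geometric mean was at most 729.3 counts in WT and at least 766.2 in Trem1-/- samples. Whatever moved these probes thus cannot be told apart from genotype there. The separation depends on the processing. In WT intestinal columns multiplied by a constant, the controls were multiples of it too and were divided. In multiplied Trem1-/- columns the controls were whole numbers as deposited and stayed undivided. Without that division the ranges would overlap. Scaling to the positive controls used these values. The sources used here name no assay run.

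Levels are normalised counts, scaled in each sample so that 3 housekeeping genes (Actb, Gapdh and Rpl19) keep a constant geometric mean. The cDNA was pre-amplified and the probes differ in yield, so levels are compared between samples for a gene, not between genes.

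Nfkb1, the precursor of p50, had a higher mean in WT than in Trem1-/- cells of every source. In marrow it stood at 40397, 42697 and 22458 in the WT mice (mean 35184 ± 11081, SD, n = 3) and at 32843, 20501 and 19741 in the Trem1-/- mice (24362 ± 7355, n = 3). In control intestine it stood at 32754, 31221, 49227, 37923 and 48752 in WT cells (39976 ± 8597, n = 5) and at 27813, 30291, 21814, 16649.5 and 19121 in Trem1-/- cells (23138 ± 5766, n = 5). In inflamed intestine it stood at 27115, 55129, 30302, 28497 and 45446 in WT cells (37298 ± 12394, n = 5), while Trem1-/- cells ran from 9743 over a median of 12497 to 22059 (14280 ± 4715, n = 7). Every WT intestinal sample lay above every Trem1-/- sample of the same source, whereas the marrow samples overlapped. From high to low the order of the means was WT control, WT inflamed, WT marrow, Trem1-/- marrow, Trem1-/- control and Trem1-/- inflamed. Of these neighbours, only the last pair differed by more than the larger of their SDs, and all neighbouring ranges overlapped.

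Nfkb2, the precursor of p52, was highest in WT cells from the intestine. In marrow it stood at 5077, 10889 and 3772 in the WT mice (6579 ± 3789, SD, n = 3) and at 4727, 4756 and 3812 in the Trem1-/- mice (4432 ± 537, n = 3). In control intestine WT cells gave 6829, 16076, 22681, 13525 and 9957 (13813 ± 6072, n = 5), against 7150, 4445, 6051, 6043 and 8577 in Trem1-/- cells (6453 ± 1530, n = 5). In inflamed intestine WT cells gave 11940, 13742, 14565, 15617 and 21201 (15413 ± 3504, n = 5), against 4631 to 8729 around a median of 6652 in Trem1-/- cells (6613 ± 1225, n = 7). The lowest WT inflamed sample lay above the highest Trem1-/- inflamed sample. In control intestine the first WT sample fell among the Trem1-/- samples. The order of the means was WT inflamed, WT control, Trem1-/- inflamed, WT marrow, Trem1-/- control and Trem1-/- marrow. The steps from WT control to Trem1-/- inflamed and from Trem1-/- control to Trem1-/- marrow exceeded the larger SD, and all neighbouring ranges overlapped.

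Relb, the partner of p52, set no group apart from the others. In marrow it stood at 112, 412 and 357 in the WT mice (294 ± 160, SD, n = 3) and at 139, 423 and 543 in the Trem1-/- mice (368 ± 207, n = 3). In control intestine WT cells gave 304, 658, 491, 436 and 195 (417 ± 177, n = 5) and Trem1-/- cells 281, 169, 291, 540 and 705 (397 ± 219, n = 5). In inflamed intestine WT cells gave 1001, 255, 495, 833 and 654 (648 ± 290, n = 5), and Trem1-/- cells ran from 339.7 over a median of 380.4 to 773 (456 ± 159, n = 7). All 6 groups overlapped, and every neighbouring pair of means lay within the larger SD. WT inflamed cells had the highest mean and WT marrow the lowest.

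**Figure D1:**
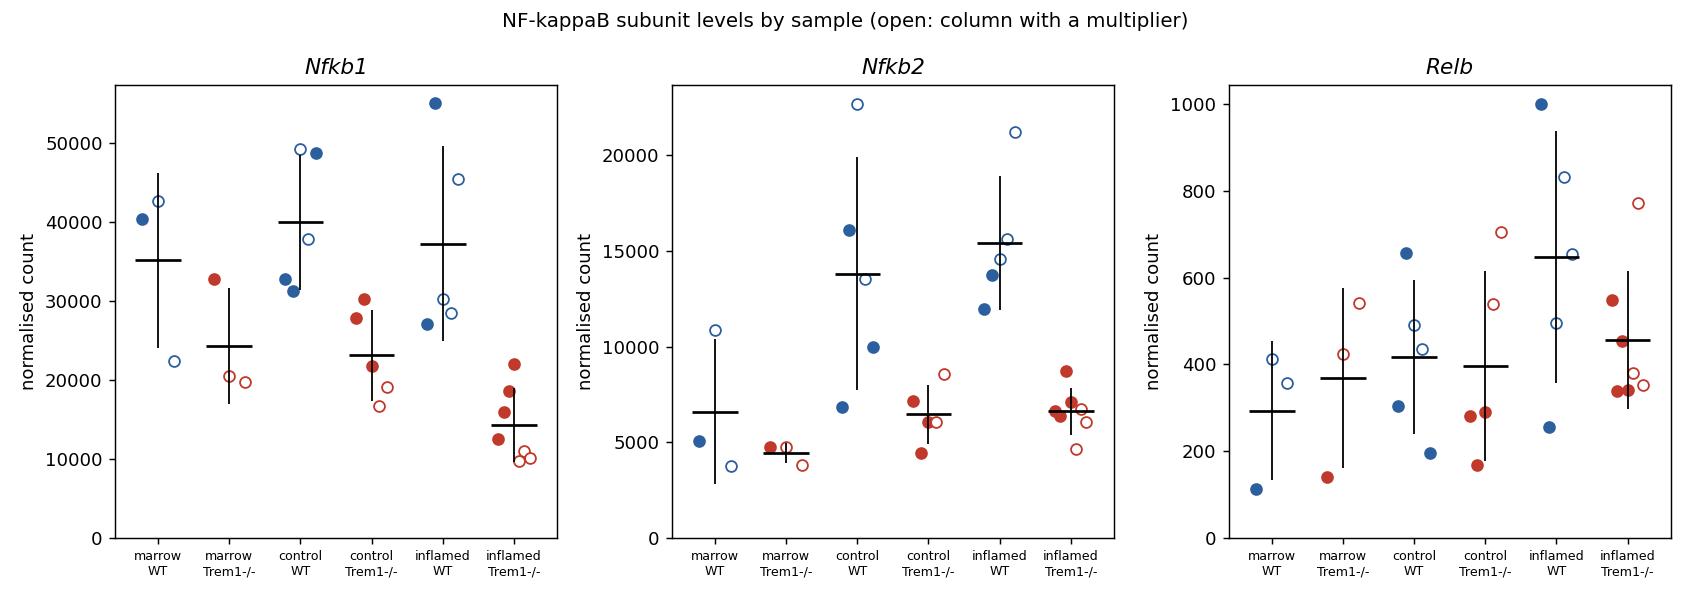
Normalised counts of Nfkb1, Nfkb2 and Relb in each sample of the 6 groups, on linear axes that start at 0 and differ between the genes. Points are samples (WT blue, Trem1-/- red; open where the deposited column had been multiplied by a constant), bars are means and lines the SD; Nfkb1 and Nfkb2 sit lower in Trem1-/- than in WT inflamed cells with no overlap, and Relb overlaps throughout.

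Donor genotype was compared within inflamed intestine first. Nfkb1 was lower in Trem1-/- than in WT cells, at 38.3% of the WT level (log2 fold change -1.39, SE 0.25, edgeR adjusted p = 0.000227). Nfkb2 was lower too, at 42.9% of the WT level (-1.22, SE 0.25, adjusted p = 0.000979). Of the 55 genes tested, 23.6% were lower past the threshold of 0.05, and 12.7% were lower without overlap between the groups, as Nfkb1 and Nfkb2 were. Relb did not pass (-0.51, SE 0.39, 95% interval -1.31 to 0.30, adjusted p = 0.335). In bulk samples of sorted cells, fewer cells of a type and less RNA per cell cannot be told apart. The monocyte and macrophage markers went both ways in this comparison. Of 10 tested, Spi1 (-1.39), Csf1r (-1.33) and Ly6c1 (-4.996) were lower in Trem1-/- cells, Mrc1, a macrophage receptor, was higher (2.61, edgeR adjusted p = 0.00493), and 6 did not pass. Their summed level, which is weighted by probes of high yield, did not overlap, with 170241 to 221412 in Trem1-/- and 251191 to 327474 in WT inflamed cells. None of 4 dendritic cell markers passed, and their sum overlapped, with 11151 to 39020 and 5189 to 71355. The part of either list in the difference was not tested.

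In control intestine the same direction was seen with fewer calls. Nfkb2 was lower in Trem1-/- cells, at 46.7% of the WT level (log2 fold change -1.10, SE 0.28, edgeR adjusted p = 0.0206), and it was 1 of only 2 genes, 3.64% of the 55, that passed, the other being Spi1. Nfkb1 stood at 57.9% (-0.79, SE 0.27, adjusted p = 0.0796), which misses the threshold although its groups did not overlap, a pattern shared by 7.27% of the genes in this direction. Relb gave -0.07 (SE 0.42, interval -0.94 to 0.80, adjusted p = 0.919). The monocyte and macrophage markers summed to 191763 to 280020 in Trem1-/- and 266266 to 360030 in WT control cells, and the dendritic cell markers to 64810 to 148002 and 101213 to 165233. Their part was not tested. The Nfkb2 call ended when any of 5 libraries was left out: WT control replicate 2 (-1.04, adjusted p = 0.0607), WT control replicate 3 (-0.85, 0.0637), or Trem1-/- control replicates 2 (-0.99, 0.0686), 3 (-1.08, 0.0632) or 4 (-1.08, 0.0591). Over all 24 alternatives its adjusted p ran from 0.000720 to 0.253.

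In marrow, before any transfer, no gene passed the threshold between genotypes (0.0% of 54; 3 genes at an unadjusted p under 0.05, and 3 with DESeq2), and 7.41% did not overlap. Nfkb1 gave a log2 fold change of -0.53 (SE 0.40, 95% interval -1.43 to 0.37, edgeR adjusted p = 0.843) and Nfkb2 -0.57 (SE 0.59, interval -1.90 to 0.76, adjusted p = 0.843). Both intervals include the sizes seen in control and in inflamed intestine. Relb gave 0.33 (SE 0.76, interval -1.39 to 2.04, adjusted p = 0.913). Whether the genotype difference in the intestine exceeded that in marrow was tested directly, a contrast added after the data were seen. In inflamed intestine the difference of differences was -0.85 for Nfkb1 (interval -1.75 to 0.04, edgeR adjusted p = 0.366), -0.65 for Nfkb2 (-1.63 to 0.33, 0.625) and -0.83 for Relb (-2.33 to 0.66, 0.683), and none passed, as 5.45% of the genes did. In control intestine it was -0.26, -0.53 and -0.40, with an adjusted p of 0.956 for each, where 1.82% of the genes passed.

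The size of the genotype difference depended on the scaling. The median log2 fold change of all 55 genes in inflamed intestine was -0.28 with the housekeeping genes, 0.27 with TMM, 0.14 with DESeq2 size factors, -1.21 with the positive control probes and -0.53 with the authors' normalised values. With TMM neither gene passed in inflamed intestine (Nfkb1 -0.78, edgeR adjusted p = 0.105; Nfkb2 -0.64, 0.0910), and over all 26 alternatives each, the adjusted p ran from 1.35e-07 to 0.105 for Nfkb1 and from 8.67e-06 to 0.0964 for Nfkb2. The split of calls there, 5 genes higher and 13 lower, became 7 and 2 with TMM, 8 and 7 with DESeq2 size factors, 0 and 29 with the positive controls and 2 and 11 with the authors' values. A change of scaling moves each gene and the median of all genes together, so the distance between them is nearly fixed by construction and says nothing of stability. Under the 8 scalings Nfkb1 lay 0.98 to 1.20 and Nfkb2 0.87 to 1.03 log2 units below the median in inflamed intestine. The sign of Relb turned with TMM (0.33 in control, 0.11 in inflamed intestine) and with DESeq2 size factors in control intestine (0.29).

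**Figure D2:**
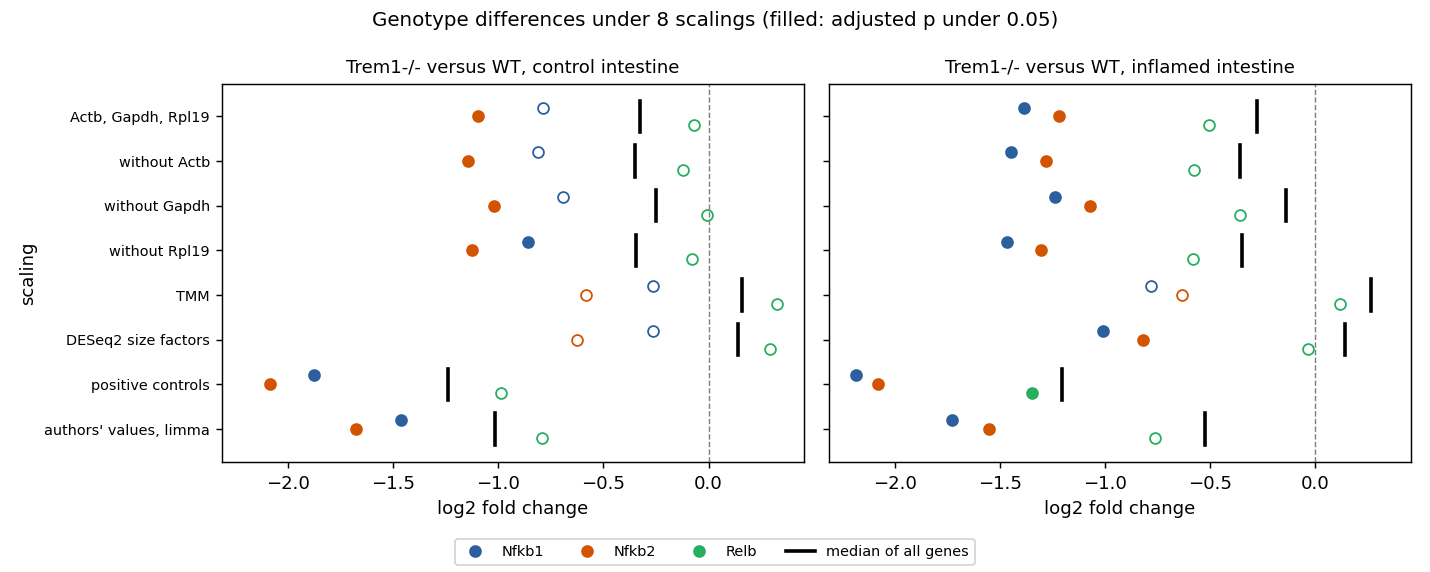
Log2 fold change of Trem1-/- against WT cells for Nfkb1, Nfkb2 and Relb (points, filled where the adjusted p is under 0.05) under 8 ways of scaling the samples, in control and in inflamed intestine. Black bars are the median of all 55 genes; points and bars shift together from line to line, and the distance of the points from 0 changes with the scaling.

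Surgical inflammation was then compared with control intestine within each genotype. In WT cells 47.3% of the 55 genes passed in either direction, and none of the 3 subunits did. Nfkb1 gave a log2 fold change of -0.10 (SE 0.27, 95% interval -0.65 to 0.45, edgeR adjusted p = 0.752) and Nfkb2 0.16 (SE 0.28, interval -0.42 to 0.73, adjusted p = 0.657). Relb had the widest interval, with 0.64 (SE 0.42, -0.24 to 1.51, adjusted p = 0.233). The samples of all 3 genes overlapped between control and inflamed intestine, as 34.5% of the genes did not.

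In Trem1-/- cells Nfkb1 was lower in inflamed than in control intestine, at 61.7% (log2 fold change -0.70, SE 0.24, edgeR adjusted p = 0.0225), in a comparison in which 27.3% of the genes were lower. The ranges overlapped, since the highest inflamed sample (22059) lay above 3 control samples, while 30.9% of the genes showed no overlap. Nfkb2 stood at 102% (0.04, SE 0.26, interval -0.50 to 0.57, adjusted p = 0.908) and Relb at 115% (0.20, SE 0.39, interval -0.61 to 1.01, adjusted p = 0.721). The Nfkb1 call ended without Trem1-/- control replicate 1 (-0.62, adjusted p = 0.0562) or 2 (-0.58, 0.0672), and the authors' normalised values turned its sign (0.16), within a range of adjusted p from 0.00371 to 0.809 over 26 alternatives. Markers moved in this comparison too. All 4 dendritic cell markers tested were lower in Trem1-/- inflamed cells (-0.81 to -1.94), and their sum did not overlap, with 11151 to 39020 against 64810 to 148002 in Trem1-/- control cells. Of the 10 monocyte and macrophage markers 4 were lower, Spi1 among them (-0.72), and 2 were higher, Cd14 and Mrc1, and their sum overlapped, with 170241 to 221412 against 191763 to 280020. In WT inflamed against WT control cells, where Nfkb1 was not called, 3 of 4 dendritic cell markers were also lower. These were Itgax (-2.38), H2-Ab1 (-2.08) and Irf4 (-1.07), while Ccr7 (-0.07) did not pass. Of the 10 monocyte and macrophage markers Cd14 was higher there, Ccr2, Csf1r and Cx3cr1 were lower, and 6 did not pass. The part of the markers in the Nfkb1 call was not tested. The deposited columns moved with Nfkb1 as well, since in Trem1-/- control cells the unmultiplied columns gave 21814 to 30291 and the multiplied ones 16649.5 to 19121, and in Trem1-/- inflamed cells 12497 to 22059 and 9743 to 11046. With that class as a block Nfkb1 stayed lower in Trem1-/- inflamed than in WT inflamed cells (-1.48, adjusted p = 5.91e-05) and became lower in Trem1-/- than in WT control cells (-0.84, adjusted p = 0.0241). The block pooled all multiplied columns, although within the intestine the WT and Trem1-/- columns carried different constants. It therefore cannot adjust for a column difference that runs with genotype.

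The response to inflammation was compared between the genotypes by an interaction term. It was -0.60 for Nfkb1 (SE 0.36, 95% interval -1.35 to 0.16, edgeR adjusted p = 0.430), -0.12 for Nfkb2 (SE 0.38, -0.90 to 0.66, 0.896) and -0.44 for Relb (SE 0.57, -1.62 to 0.75, 0.728). None passed, so a difference in response between the genotypes was not shown for any subunit. Only 3.64% of the genes passed this test, namely Il10 and Cd80, of which Il10 was named after its value was seen.

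Cells in the intestine were compared with marrow monocytes of the same genotype. In WT cells Nfkb2 was higher in control intestine than in marrow, 2.10-fold (log2 fold change 1.07, SE 0.36, edgeR adjusted p = 0.0255), where 30.9% of the genes were higher. It was also higher in inflamed intestine, 2.34-fold (1.23, SE 0.36, adjusted p = 0.00533) and without overlap, where 36.4% of the genes were higher and 29.1% were so without overlap. These WT comparisons share their marrow samples. Of 4 dendritic cell markers tested, 2 passed in both comparisons. Itgax (7.50 in control, 5.12 in inflamed intestine) and H2-Ab1 (4.75 and 2.67) were higher than in marrow, where Itgax was below background in some samples. Ccr7 and Irf4 passed in neither comparison, with Irf4 at 0.071 in control and -0.997 in inflamed intestine. The summed level of the 4 markers was 3299 to 21216 in WT marrow, without overlap with WT control (101213 to 165233) and with overlap with WT inflamed cells (5189 to 71355). Of the monocyte and macrophage markers Cd14 was higher in both, and Ccr2 and Cx3cr1 were lower in inflamed intestine, with sums of 155610 to 322001 in marrow, 266266 to 360030 in control and 251191 to 327474 in inflamed cells. The part of these markers was not tested. The control call ended without WT control replicate 3 (0.82, adjusted p = 0.0682), WT marrow replicate 1 (0.91, 0.129) or WT marrow replicate 3 (0.79, 0.143), and rose to 1.64 without WT marrow replicate 2. Both calls also ended with TMM (0.51 and 0.50) and with DESeq2 size factors (0.25 and 0.32), with adjusted p from 0.00199 to 0.576 in control and from 0.000527 to 0.437 in inflamed intestine over 22 alternatives each.

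Nfkb1 did not pass in WT cells against marrow, with 0.18 in control (SE 0.32, 95% interval -0.47 to 0.84, edgeR adjusted p = 0.692) and 0.08 in inflamed intestine (SE 0.32, -0.57 to 0.73, 0.807). In these comparisons 34.5% and 49.1% of the genes passed in either direction. Relb gave 0.51 in control (interval -0.60 to 1.61, adjusted p = 0.498) and 1.14 in inflamed intestine (interval 0.01 to 2.27, adjusted p = 0.0878). The latter passed without WT inflamed replicate 2, the sample with the lowest Relb of its group (1.35, adjusted p = 0.0421). In Trem1-/- cells Nfkb1 was lower in inflamed intestine than in marrow, at 58.6% (-0.77, SE 0.29, adjusted p = 0.0249), where 58.2% of the genes passed in either direction, 11 of the 55 being lower. Without Trem1-/- marrow replicate 1, the only unmultiplied column of that group, this was -0.49 (adjusted p = 0.184, within 0.00150 to 0.184 over 24 alternatives). In the same comparison 2 of 4 dendritic cell markers were higher, Itgax (4.77) and H2-Ab1 (7.86), and Ccr7 (1.15) and Irf4 (-0.67) did not pass. Itgax was below background in some Trem1-/- marrow samples, and H2-Ab1 averaged only 103 normalised counts there. The dendritic cell sum was 1761 to 5516 in Trem1-/- marrow against 11151 to 39020. Of 10 monocyte and macrophage markers, Cd14 (3.96) and Mrc1 (4.56) were higher. Ccr2 (-1.37), Cx3cr1 (-5.76) and Ly6c1 (-3.61) were lower, and 5 did not pass. Their part was not tested.

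The remaining Trem1-/- values of the 3 subunits against marrow did not pass. In control intestine Nfkb1 gave -0.07 (edgeR adjusted p = 0.846), Nfkb2 0.54 (0.247) and Relb 0.11 (0.854), where 34.5% of the genes passed in either direction. Dendritic cell markers rose there without an Nfkb2 call. Of 4 tested, H2-Ab1 (9.79), Itgax (6.49) and Ccr7 (2.61) were higher, against the same low marrow levels, and Irf4 (0.13) did not pass. Of 10 monocyte and macrophage markers, Cd14 (3.35) was higher and 9 did not pass. Their part was not tested. In inflamed intestine Nfkb2 gave 0.58 (adjusted p = 0.137) and Relb 0.31 (0.628). The rise of Nfkb2 from marrow in WT cells was thus called where that in Trem1-/- cells was not, but the test of the difference itself, given above, did not pass.

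**Figure D3:**
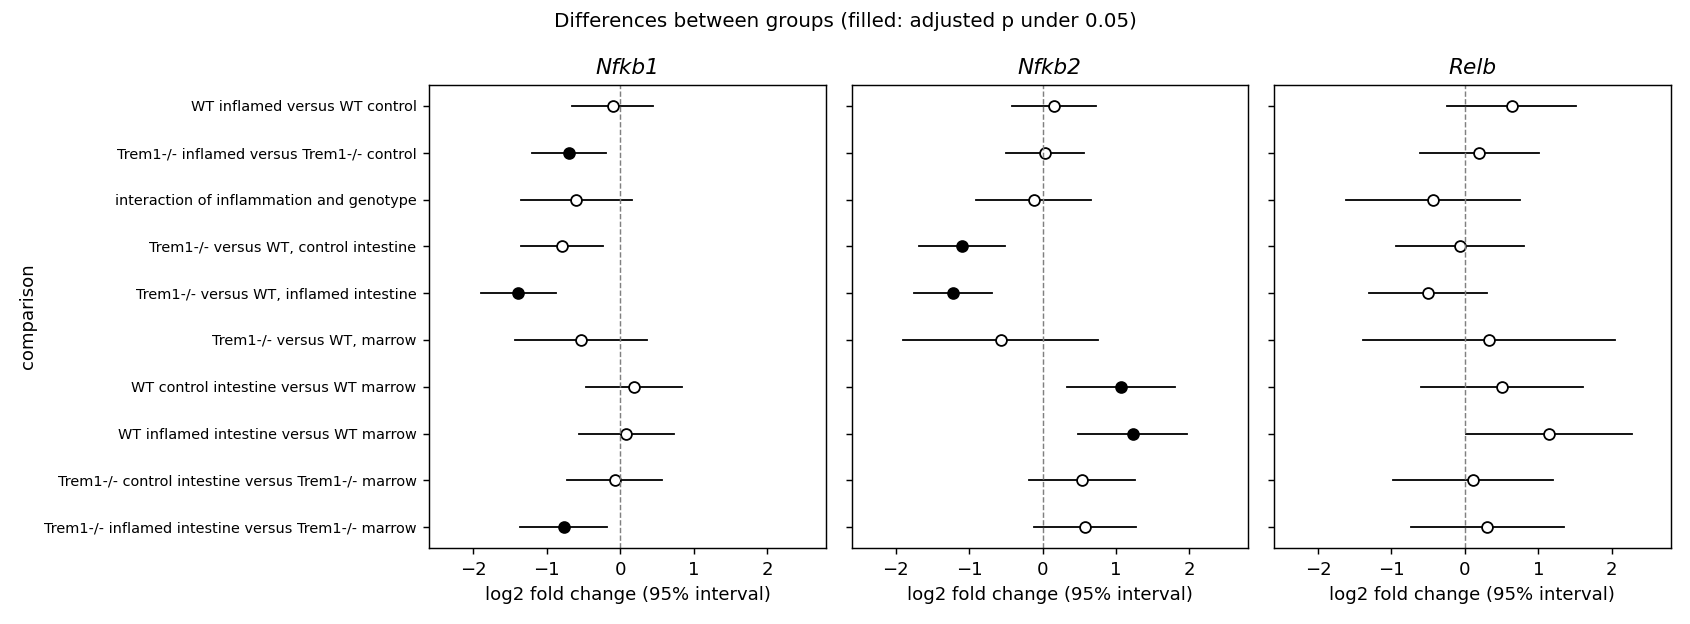
Log2 fold changes (points) with 95% intervals (lines) of Nfkb1, Nfkb2 and Relb in 10 comparisons, filled where the adjusted p is under 0.05. Nfkb1 passed in 3 comparisons and was lower in each, Nfkb2 passed in 4, and Relb in none.

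The balance between the subunits within a sample does not depend on the scaling, since the factor cancels. The log2 ratio of Nfkb2 to Nfkb1 was -2.51 ± 0.51 (SD, n = 3) in WT marrow, -1.62 ± 0.63 (n = 5) in WT control and -1.24 ± 0.44 (n = 5) in WT inflamed cells. In Trem1-/- cells it was -2.43 ± 0.35 (n = 3), -1.84 ± 0.61 (n = 5) and -1.07 ± 0.33 (n = 7). The probes differ in yield, so only differences between groups can be read from these values. The ratio was lowest in marrow and highest in inflamed intestine for both genotypes. In Trem1-/- cells it was 1.36 log2 units higher in inflamed intestine than in marrow without overlap (exact permutation test, two-sided, p = 0.0167, the smallest these group sizes allow), and 0.77 higher than in control intestine (exact permutation p = 0.0177). Both gave an adjusted p of 0.239 over the 27 ratios compared by exact permutation, of which 0 passed. Relb to Nfkb2 was 0.88 higher in Trem1-/- than in WT control cells (exact permutation p = 0.0476, adjusted 0.386). With 3 marrow mice of each genotype the smallest possible p is 0.1. It is 0.00253 for 7 against 5 samples, 0.00794 for 5 against 5, and 0.0167 or 0.0357 for intestine against marrow. After adjustment over the 27 ratios no ratio could therefore pass alone, only together with others near their smallest p. That 0 passed thus does not show an unchanged balance.

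**Figure D4:**
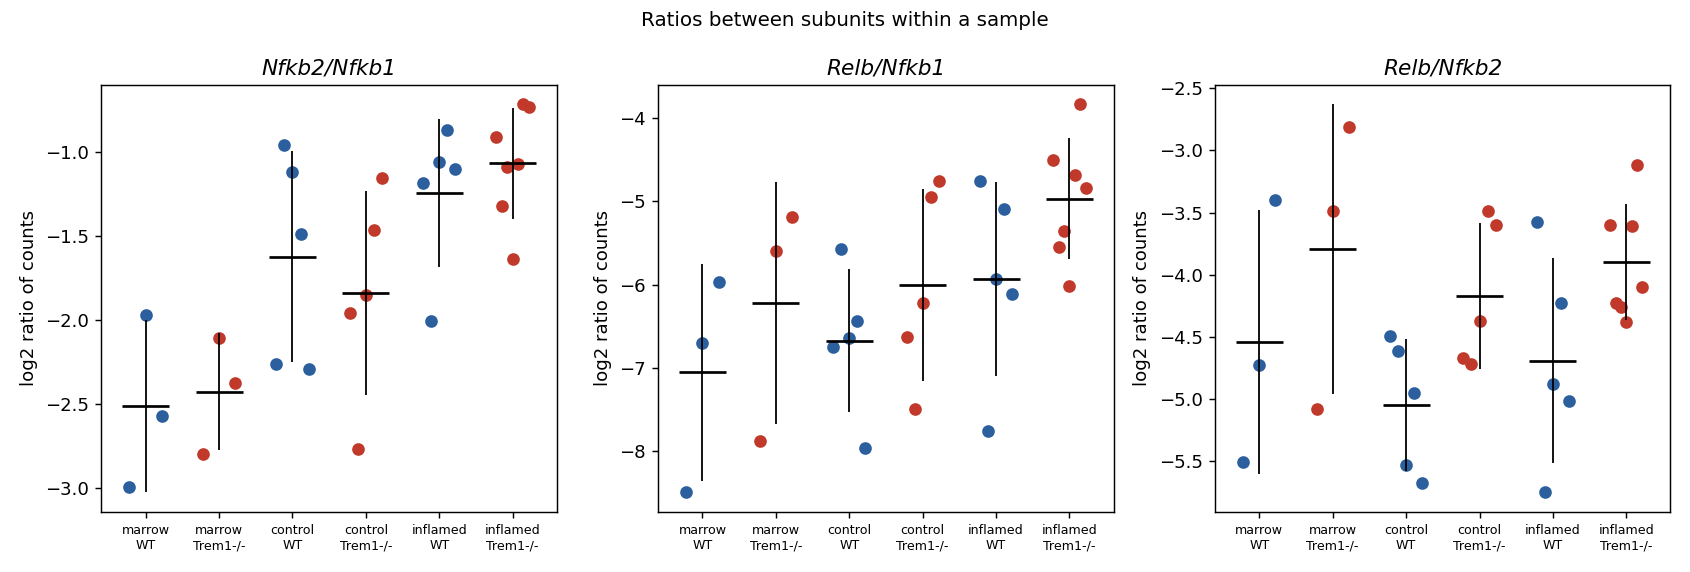
Log2 ratio of the counts of 2 subunits in each sample (points; WT blue, Trem1-/- red), with the mean (bar) and SD (line) of each group, on axes that differ between panels. Nfkb2 to Nfkb1 has its lowest group means in marrow, at -2.51 and -2.43, and its highest in inflamed intestine, at -1.24 and -1.07.

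The genes whose log2 levels ran most like each subunit over the 28 samples were found by Pearson's r, given as a description since the samples share scaling and groups. Nfkb1 ran most like Spi1, which encodes the myeloid transcription factor PU.1 (r = 0.88, Spearman's rho 0.88), then Itgb7, a gut-homing integrin (0.65 and 0.62), and Traf6, an adaptor of Toll-like receptor signalling (0.62 and 0.63). With group means removed these were 0.69, 0.64 and 0.76. Spi1 was lower in Trem1-/- than in WT cells in inflamed (log2 fold change -1.39, edgeR adjusted p = 3.17e-05) and in control intestine (-0.99, 0.00932), and lower in Trem1-/- inflamed than in Trem1-/- control cells (-0.72, 0.00569). Nfkb2 ran most like Nod2, a sensor of bacterial cell wall (r = 0.81, rho 0.85), Cd80, a co-stimulatory ligand (0.69 and 0.60), and Spi1 (0.64 and 0.57), which were 0.59, 0.38 and 0.20 with group means removed.

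Relb ran with other genes. Its closest were Cebpb, a transcription factor of monocytes (r = 0.88, rho 0.85), Tlr1, a partner of TLR2 (0.86 and 0.83), and Cd44, an adhesion receptor (0.84 and 0.78). With group means removed these were 0.88, 0.90 and 0.85, so the likeness lay mostly within groups. Part of that spread moved with the deposited columns, since Relb was 169 to 291 in unmultiplied and 540 to 705 in multiplied columns of Trem1-/- control cells. In WT marrow it was 112 in the unmultiplied and 357 to 412 in the multiplied columns, and in Trem1-/- marrow 139 and 423 to 543. The cause of these steps was not tested. The classes overlapped in WT control (195 to 658 unmultiplied, 436 to 491 multiplied) and WT inflamed cells (255 to 1001 and 495 to 833). They also overlapped in Trem1-/- inflamed cells (340 to 549 and 353 to 773). Among themselves, Nfkb1 and Nfkb2 gave r = 0.55 (rho 0.52), Nfkb2 and Relb 0.44 (0.41), and Nfkb1 and Relb -0.29 (-0.29), or -0.59 with group means removed.

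The panel also held receptors, adaptors and target genes of the pathway. Of 10 textbook targets tested, 8 rose in WT inflamed against WT control cells and none fell, with a median log2 fold change of 2.44 against -0.08 over all genes, of which 25.5% rose. Under each of the 7 other scalings 8 targets rose, and 1 target fell with TMM, with DESeq2 size factors and without Actb. Il6, Il23a, Il1a and Cxcl1, which encode inflammatory cytokines and a neutrophil attractant, rose most (5.12, 4.78, 4.07 and 3.90). The 3 subunits lay between -0.10 and 0.64 in the same comparison. In Trem1-/- cells 6 targets rose, 1 fell (Ccr7, the lymph node homing receptor, -1.46) and 3 did not pass, with a median of 2.52 against 0.10 over all genes, of which 21.8% rose. Under the 7 other scalings 5 to 8 rose and 0 to 2 fell. Cxcl1 rose by 5.47, Il23a by 5.63 and Il6 by 4.90, while Nfkb1 was lower.

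Upstream genes moved less. Of 4 receptors tested, Cd14, the lipopolysaccharide co-receptor, and Tlr4, the lipopolysaccharide receptor, rose in WT inflamed cells (1.00 and 1.11), and only Cd14 rose in Trem1-/- inflamed cells (0.62), where Tlr4 gave 0.71 and did not pass (edgeR adjusted p = 0.0648). The interaction passed for neither, and with TMM no receptor passed in either genotype. In Trem1-/- cells Cd14 also did not pass with DESeq2 size factors (0.42) or without Actb (0.36). Tlr4 rose past the threshold in them with the positive controls (1.27), without Rpl19 (0.92) and with the authors' values (1.56). Of the adaptors, Card9, which acts behind C-type lectin receptors, was lower in inflamed cells of both genotypes (-0.95 in WT, -0.83 in Trem1-/-), and Traf6 rose in WT cells (0.79). Card9 did not pass with the positive controls or the authors' values, which turned its sign in Trem1-/- cells (0.081). In WT cells Traf6 did not pass with TMM, with DESeq2 size factors, without Actb or without Gapdh. In Trem1-/- cells Traf6 rose past the threshold with the positive controls (0.86) and the authors' values (1.10).

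Between genotypes in inflamed intestine, where Nfkb1 and Nfkb2 were lower in Trem1-/- cells, 3 of 4 receptors were lower as well: Nod2 (-1.38), Tlr4 (-1.25) and Tlr2 (-0.99), the last on a mean of 66.8 normalised counts, in a comparison in which 23.6% of all genes were lower. The adaptor Traf6 was lower (-1.17), while Card9 did not pass. With TMM none of these receptors or adaptors passed (Nod2 -0.69, Tlr4 -0.56, Tlr2 -0.39, Traf6 -0.51), and with DESeq2 size factors only Nod2 did (-0.91). The targets were divided, with Cxcl1 (1.30) and Ccl2 (0.92), both chemokines, higher in Trem1-/- cells, Cd80 (-1.58) lower and 7 not past the threshold. Their median was 0.08 against -0.28 over all genes, of which 9.09% were higher. Cxcl1 and Ccl2 did not pass with the positive controls (0.43 and 0.074) or the authors' values (1.00 and 0.58), and Cd80 was lower under all 7 other scalings. In control intestine, where Nfkb2 was lower, none of the 4 receptors, 2 adaptors or 10 targets passed, whereas 9 passed as lower with the positive controls and 4 with the authors' values. These counts describe lists chosen with earlier results of these data known.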

How the data were processed

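Cells sorted from recipient intestine and marrow monocytes were measured by NanoString after pre-amplification of cDNA with multiplexed target enrichment primers, per the labels' protocols. The authors deposited barcode counts per probe as whole numbers in 14 samples. Another 14 columns hold expected counts as the authors deposited them, each a whole number times 1.33 (8 samples), 1.333 (5) or 2 (1). These constants, for which no reason is given in the sources used here, were divided out, which left 100% whole values (tolerance 0.0001), although the plan had been to test the counts as deposited. Within the intestine, 1.333 and 2 occurred only in WT columns, and the remaining constant only in Trem1-/- columns. The constant thus cannot be told apart from genotype there. Blank targets numbered 12 in every WT intestinal sample and 14 in every other sample. In the authors' normalised table, read as a score, each sample was multiplied by 1 factor (0.407 to 3.12) and rounded. It served as an alternative with limma 3.58.1 on log2(value + 1).

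Counts were scaled to Actb, Gapdh and Rpl19 and compared by edgeR's two-sided quasi-likelihood test (edgeR 4.0.16 under R 4.3.3). The p-values were adjusted by Benjamini-Hochberg over the 55 genes (54 in marrow) above background in at least 3 samples. Intestinal comparisons used 22 samples, the marrow comparison 6, and intestine against marrow all 28. DESeq2 1.42.0 was an alternative. Tables, exact permutation tests and figures were made with matplotlib 3.10.9, scipy 1.17.1, numpy 2.4.6 and pandas 2.3.3 under Python 3.11.15. Tests were tried on simulated data. Of the 72 targets, 69 matched a RefSeq accession.

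The 3 genes and the lists were chosen with earlier results of these data known. Named pathway genes passed the threshold in the comparison described, at most 4 a role by size, and genes that did not pass are named for contrast. Likeness names the 3 genes with the highest r. Mouse numbers in the labels are shared between groups. In marrow all 3 same-numbered pairs deviated together (r 0.20 to 0.79), and the block changed no call there. Replicate 1 was also the only unmultiplied column of both marrow groups, so mouse number and column class cannot be told apart. In the other comparisons not all pairs deviated together. The numbers are read as shared labels throughout. Between any pair of samples of a group the chi-square per degree of freedom was at least 264.9, so none was a copy. Counts follow amplification without molecular identifiers, so depth covers counting error only.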

Additional observations from a re-analysis of the deposited data

Results flagged for a closer look

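Among the levels and ratios of the 3 genes, 24 groups of 4 to 10 samples were compared for a sample far from the others, a rule that chance meets in about 1 of 20 groups. In 1 of them a sample stood apart. WT inflamed replicate 2 had a log2 ratio of Nfkb2 to Nfkb1 of -2.004, while the other 4 WT inflamed samples lay between -1.18 and -0.87, and its gap to them made up 0.722 of the range of the group (limit 0.710). The same sample had the highest Nfkb1 (55129 normalised counts) and the lowest Relb (255) of WT inflamed cells.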

How the results depend on the processing

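The lower Nfkb1 and Nfkb2 of Trem1-/- cells in inflamed intestine kept their direction in all 26 alternatives each and stayed past the threshold in 25 and 24, every omission of a single library included. Other calls were less stable, and the only called value whose sign turned was Nfkb1 in Trem1-/- inflamed against control (authors' values, below). The cause of the changes below was not tested. Log2 fold changes follow, where "genotype" is Trem1-/- against WT and "marrow" is the marrow of the same genotype.

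With TMM, the calls on genotype in inflamed intestine (Nfkb1 -0.78, Nfkb2 -0.64), on Nfkb2 for genotype in control intestine (-0.59) and on Nfkb2 in WT control and WT inflamed against marrow (0.51 and 0.50) were lost. Signs turned for Nfkb2 in WT and Trem1-/- inflamed against control (-0.25 and -0.30) and in Trem1-/- inflamed against marrow (-0.11). They turned for Nfkb1 in WT control and WT inflamed against marrow (-0.41 and -0.82). For Relb they turned for genotype in control and inflamed intestine (0.33 and 0.11), and in WT control, Trem1-/- control and Trem1-/- inflamed against marrow (-0.049, -0.51 and -0.38). With DESeq2 size factors in edgeR the Nfkb2 calls on genotype in control intestine (-0.63) and in WT control and WT inflamed against marrow (0.25 and 0.32) were lost. Signs turned for Nfkb2 in Trem1-/- inflamed against control (-0.046), and in Trem1-/- control and inflamed against marrow (-0.21 and -0.31). They turned for Nfkb1 in WT control and WT inflamed against marrow (-0.70 and -0.92), and for Relb for genotype in control intestine (0.29) and in WT control, Trem1-/- control and Trem1-/- inflamed against marrow (-0.26, -0.58 and -0.41).

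Scaling to the positive control probes ended the calls on Nfkb1 in Trem1-/- inflamed against control (-0.076) and Nfkb2 in WT control against marrow (0.82). It made calls of Nfkb1 for genotype in control intestine (-1.88) and in Trem1-/- control against marrow (-1.13), and of Relb for genotype in inflamed intestine (-1.35). Signs turned for Nfkb1 in WT inflamed against control (0.23) and in WT control and inflamed against marrow (-0.27 and -0.033), for Nfkb2 in the interaction (0.0061) and Trem1-/- control against marrow (-0.36), and for Relb in Trem1-/- control and inflamed against marrow (-0.71 and -0.14). The authors' normalised values with limma lost Nfkb2 in WT control against marrow (0.49), and called Nfkb1 for genotype in control intestine (-1.46) and in Trem1-/- control against marrow (-1.70). Signs turned for Nfkb1 in WT and Trem1-/- inflamed against control (0.43 and 0.16) and WT control against marrow (-0.40). They turned for Nfkb2 in the interaction (0.12) and in Trem1-/- control and inflamed against marrow (-1.12 and -0.19), and for Relb in the interaction (0.027) and in WT control, Trem1-/- control and Trem1-/- inflamed against marrow (-0.020, -1.48 and -0.29).

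Without Rpl19 in the scaling, Nfkb1 in Trem1-/- inflamed against control (-0.47) and Nfkb2 in WT control against marrow (0.76) lost their calls, and Nfkb1 for genotype in control intestine (-0.86) gained one. Signs turned for Nfkb1 in WT inflamed against control (0.14) and in WT control and inflamed against marrow (-0.19 and -0.047), and for Relb in Trem1-/- control against marrow (-0.066). Without Actb they turned for Nfkb2 in WT and Trem1-/- inflamed against control (-0.085 and -0.22), Relb in Trem1-/- inflamed against control (-0.043) and Nfkb1 in Trem1-/- control against marrow (0.073). Without Gapdh, Nfkb1 turned in Trem1-/- control against marrow (0.037) and lost its call in Trem1-/- inflamed against marrow (-0.63). The DESeq2 Wald test (-0.79) and the multiplier class as a block (-0.84) called Nfkb1 for genotype in control intestine, and the latter also Relb in WT inflamed against marrow (1.34). Keeping the counts as deposited and dropping the filter changed no call on the 3 genes.

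Fits of the unmultiplied columns alone or the multiplied columns alone, added after the data were seen, have fewer samples. In the unmultiplied ones Nfkb1 in Trem1-/- inflamed against control (-0.63) and against marrow (-0.93) lost its calls, as did Nfkb2 for genotype in control and inflamed intestine (-0.90 and -0.83) and in WT control and inflamed against marrow (1.11 and 1.34). Signs turned for Nfkb1 in WT inflamed against control (0.13) and WT control against marrow (-0.10), and in the interaction for Nfkb2 (0.066) and Relb (0.065). In the multiplied ones Nfkb1 for genotype in control intestine was called (-1.28), and Nfkb2 for genotype in control intestine (-1.31) and WT control against marrow (1.30) lost their calls. Signs turned for Nfkb2 in WT and Trem1-/- inflamed against control (-0.080 and -0.33), and for Relb in Trem1-/- inflamed against control (-0.31), for genotype in control intestine (0.42) and in that genotype difference minus the one in marrow (0.10).

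With the mouse number as a replicate block, the calls on Nfkb1 in Trem1-/- inflamed against control (-0.55) and against marrow (-0.59) and on Nfkb2 for genotype in control intestine (-1.04) and WT control against marrow (1.05) were lost. Outside marrow, same-numbered samples correlated between -0.66 and 0.59, not all over 0.1, so no pairing is shown there. In marrow pairing is not established either. The block changed no other call on the 3 genes. For the ratios, paired sign-flip tests over at most 5 pairs cannot pass, and the log2 ratio of Relb to Nfkb1 in Trem1-/- control against marrow turned to -0.56.

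Leaving out each sample in turn, Nfkb1 ran from -0.83 to -0.58 in Trem1-/- inflamed against control, from -0.91 to -0.49 in Trem1-/- inflamed against marrow, from -0.21 to 0.20 in Trem1-/- control against marrow, from -0.056 to 0.35 in WT control against marrow, from -0.16 to 0.25 in WT inflamed against marrow and from -0.42 to 0.017 in genotype in control intestine minus marrow. Nfkb2 ran from -0.014 to 0.41 in WT inflamed against control, from -0.073 to 0.16 in Trem1-/- inflamed against control, from -0.37 to 0.049 in the interaction, from -1.27 to -0.85 for genotype in control intestine, from -0.85 to 0.0024 for genotype in marrow and from 0.79 to 1.64 in WT control against marrow. Relb ran from -0.38 to 0.16 for genotype in control intestine, from -0.062 to 0.72 for genotype in marrow, from 0.75 to 1.47 in WT inflamed against marrow, from -0.28 to 0.50 in Trem1-/- control against marrow and from -0.083 to 0.70 in Trem1-/- inflamed against marrow. No ratio passed without any sample, where again none could have passed alone. Nfkb2 to Nfkb1 ran from -0.39 to 0.016, -0.016 to 0.27 and -0.15 to 0.36 for genotype in control intestine, inflamed intestine and marrow. Relb to Nfkb1 ran from -0.34 to 0.92 in WT control and from -0.62 to 0.73 in Trem1-/- control against marrow. Relb to Nfkb2 ran from -0.99 to 0.063, -0.63 to 0.42, -1.02 to 0.12 and -0.75 to 0.39 in WT control, WT inflamed, Trem1-/- control and Trem1-/- inflamed against marrow.

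The number of genes past the threshold for genotype in control intestine, 2 with edgeR, was 0 with TMM and with DESeq2 size factors, 1 with the block, 4 without Rpl19, 6 with the multiplier class, 11 in unmultiplied columns, 12 with the authors' values, 13 with the DESeq2 Wald test and 29 with the positive controls. In inflamed intestine 18 became 9 with TMM and 29 with the positive controls. In marrow 0 became 1 without Rpl19, 2 with the positive controls and 3 with DESeq2. The 2 genes of the interaction became 0 with DESeq2 size factors, the authors' values and multiplied columns, 1 with the positive controls and the block, 4 with DESeq2 and the multiplier class, and 16 in unmultiplied columns. WT inflamed against control went from 26 to 17 with the positive controls, WT control against marrow from 19 to 11 with them, 8 with the authors' values and 12 in unmultiplied columns, and Trem1-/- control against marrow from 19 to 12 in unmultiplied columns. The split of higher and lower calls moved as well. It was 14 higher and 12 lower in WT inflamed against control (11 and 18 with TMM, 14 and 3 with the positive controls, 16 and 6 with the authors' values), and 12 and 15 in Trem1-/- cells (15 and 4 with the positive controls, 18 and 2 with the authors' values). Against marrow it was 17 and 2 in WT control (11 and 5 with TMM, 10 and 12 with DESeq2 size factors), 20 and 7 in WT inflamed (16 and 16, 15 and 20), 17 and 2 in Trem1-/- control (14 and 6, 13 and 11) and 21 and 11 in Trem1-/- inflamed cells (19 and 20, 19 and 22, in that order). With the positive controls and the authors' values the split was 8 and 8 and 6 and 22 in Trem1-/- control, 18 and 16 with both in Trem1-/- inflamed cells, and with the authors' values 6 and 2 in WT control cells. For genotype in control intestine minus marrow 1 gene passed, and 0 with TMM, DESeq2 size factors, the positive controls, the authors' values, either block and either class of columns. In inflamed intestine minus marrow 3 passed, against 0 with the positive controls, the authors' values and multiplied columns and 1 in unmultiplied columns.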
